A study of Mus musculus with 6 samples.

Results

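Malat1 and Neat1 are a pair of long noncoding RNAs that stay in the nucleus, and both were taken by gene symbol from the deposited tables, as 2 of the 47643 genes listed there. The libraries came from GFP-positive ependymal cells of adult mice, sorted by flow cytometry from the ventricular-subventricular zone (V-SVZ) 2 days after tamoxifen. The V-SVZ is the stem cell niche along the lateral ventricle, whose wall is lined by ependymal cells, an epithelium with motile cilia. There were 3 samples titled CKO, in which tamoxifen had deleted Ccn1 in ependymal cells (conditional knockout, cKO), and 3 titled CTR (control), sorted on GFP in the same way. The sources used here do not give the mouse strain, the driver of the recombination, the age beyond adult or whether samples came from separate animals. Any p-value therefore measures only the spread between these samples, which may be technical. Both genes were chosen by their level in each library and by the cKO against control difference. Their levels and differences between genotypes are therefore given as a description without a test.

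Malat1 gathers in nuclear speckles, the compartments that hold splicing factors, and is among the most abundant RNAs of many cell types. Neat1 is the scaffold of paraspeckles, nuclear bodies built on its long isoform together with RNA-binding proteins such as NONO and SFPQ. A short Neat1 isoform shares the start of the gene and ends in a poly(A) tail, whereas the long isoform and Malat1 are cut at the 3′ end by RNase P and are protected there by a triple helix in place of a tail. The cut releases a small tRNA-like RNA from Malat1. Transcript ends and models bear on the values below, since a tool that shares reads between overlapping models has to choose among them.

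The genes lie next to each other on chromosome 19 and on the minus strand in GENCODE M21 (GRCm38). Malat1 (ENSMUSG00000092341.2 in the files) spans chr19:5795690-5802672 and Neat1 (ENSMUSG00000092274.2) spans chr19:5824708-5845478, with 22035 bases between them. The annotation behind the deposited files is not named, and 82.1% of its gene identifiers carry the same version number in M21, so the models described here may differ from those used for the counts. M21 gives Malat1 1 full-length model, Malat1-201, of 6983 bases in 1 exon, and 3 spliced models of 485 to 656 bases. Malat1-202 (556 bases) and Malat1-204 (656 bases) lie at the 3′ end and Malat1-203 (485 bases) at the 5′ end. Neat1 has the long model Neat1-201 of 20771 bases in 1 exon, the shorter Neat1-202 of 3004 bases in 2 exons from the 5′ end, and 2 further spliced models of 1030 bases (Neat1-203) and 711 bases (Neat1-204).

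The 3′ regions of the full-length models are shown because they carry the processing site that both RNAs share. The capitals mark the longest run that ends Neat1-201 and also occurs near the end of Malat1-201. It is 11 bases long, and in Malat1-201 it ends at base 6691, position 5795982 of the chromosome. The bases after it in Malat1-201 begin the tRNA-like RNA. The U-rich stretches of the triple helix are written with T, in lower case, before the run.
Malat1-201, bases 6582 to 6753: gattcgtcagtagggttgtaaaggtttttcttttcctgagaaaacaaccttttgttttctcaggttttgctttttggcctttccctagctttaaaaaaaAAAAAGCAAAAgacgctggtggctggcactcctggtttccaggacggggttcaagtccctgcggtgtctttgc
Neat1-201, bases 20662 to 20771: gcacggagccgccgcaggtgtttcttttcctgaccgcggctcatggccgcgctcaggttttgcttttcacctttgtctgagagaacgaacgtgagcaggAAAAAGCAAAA

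The last bases of 3 models with a poly(A) signal are shown because they tell how far the short models overlap the full-length ones. The capitals mark the motif AATAAA, searched on the transcribed strand in the last 60 bases of each model. It was present in Malat1-201, Malat1-202, Malat1-204 and Neat1-202 and was not found in that window in Neat1-201. Malat1-201 runs on for 292 bases beyond the shared run, and Malat1-202 ends 1 base short of it.
Malat1-201, bases 6914 to 6983: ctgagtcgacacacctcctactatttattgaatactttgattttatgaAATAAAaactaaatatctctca
Malat1-202, bases 487 to 556: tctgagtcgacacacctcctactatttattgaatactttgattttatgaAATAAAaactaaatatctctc
Neat1-202, bases 2935 to 3004: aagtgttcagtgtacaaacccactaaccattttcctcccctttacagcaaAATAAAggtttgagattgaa

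The overlap between models was nearly complete. Of the 526 different words of 31 bases in Malat1-202, 501 (95.2%) also occur in Malat1-201, which leaves 25 that could tell them apart. In Neat1-202, 2945 of 2974 words (99.0%) also occur in Neat1-201. Most reads from the shared parts can therefore come from either model of a gene.

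The sample descriptions name cytoplasmic RNA and the molecule field total RNA, so how fully these libraries hold nuclear RNA is not known. Malat1 was one of the most abundant RNAs in every library. Its estimated count was 79877, 61809 and 135463 in cKO 1, 2 and 3 and 54967, 65180 and 62333 in control 1, 2 and 3. Its level was expressed as CPM, counts scaled to library size with TMM normalization, and was 5789, 4597 and 9953 (cKO) and 3637, 4757 and 3982 (control). It ranked between 7 (cKO 3) and 25 (control 1) among all genes by CPM. The cKO 3 library was the highest, 1.72 times the next one, and the other 5 libraries lay within 3637 to 5789 CPM. The genotypes overlapped, since cKO 2 was below control 2. The group levels were 6780 ± 2812 CPM (cKO) and 4125 ± 574 CPM (control) (SD, n = 3 each), a log2 difference of 0.72 ± 0.27 (SE) from edgeR. Without cKO 3 the other 2 cKO libraries averaged 5193 CPM, 1.26 times the control mean, and the log2 difference was 0.33.

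Neat1 was low and uneven. Its estimated count was 16.7, 56.2 and 227 in cKO 1, 2 and 3 and 286, 197 and 2.02 in control 1, 2 and 3. Its level was 1.23, 4.17 and 16.7 CPM (cKO) and 18.9, 14.4 and 0.128 CPM (control). High and low libraries occurred in both genotypes, and control libraries were both the highest and the lowest of all 6. The group levels were 7.36 ± 8.20 CPM (cKO) and 11.1 ± 9.81 CPM (control) (SD, n = 3 each), with a log2 difference of -0.60 ± 1.91 (SE). That difference changed sign without control 1 (0.027) and was -2.05 without cKO 3. It also changed sign with limma-voom (0.41). Among 1987 genes that averaged 100 to 200 counts, the range that holds Neat1, 1404 (70.7%) had a library at 3 counts or fewer, as Neat1 did in control 3.

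**Figure D1:**
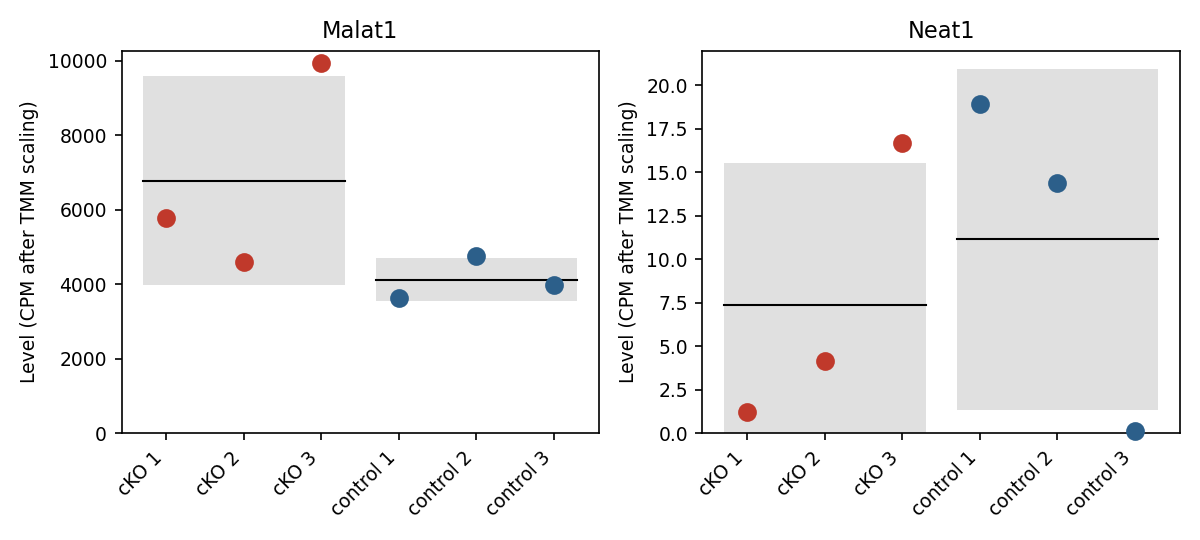
Level of Malat1 (left) and Neat1 (right) in each library, in CPM after TMM scaling on a linear axis from 0. Points are libraries (red cKO, blue control), lines are group means and grey bands are 1 SD on each side (n = 3), cut at 0. Malat1 in cKO 3, at 9953 CPM, stands above the other 5 libraries, while Neat1 runs from 0.128 to 18.9 CPM within the controls alone.

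Both members were high in cKO 3 but did not share an order of libraries. Against the mean of the other 5 libraries, cKO 3 held 2.19 times as much Malat1 and 2.15 times as much Neat1 by CPM. For Malat1 it was the top library, while for Neat1 it came after control 1, at 0.881 times its level. Control 1 was the lowest library for Malat1 and the highest for Neat1. It also had the fewest detected genes of the 6 (12428) and the largest mitochondrial share of counts (8.38%), and it was the highest library for 47 of 77 tested ribosomal protein genes and 13 of 18 tested mitochondrial genes. Over all 11574 genes tested, control 1 was the highest library for 2432, more than any other library. The part of these differences in the Neat1 level was not tested. Over the 6 libraries, the log2 CPM of the members correlated with a Pearson r of 0.28 and a Spearman rho of -0.029, and r was 0.33 without cKO 3 and control 1, the libraries farthest from the Malat1 median. This is a description over 6 points. Among 3479 other genes that averaged 50 CPM or more, 29.2% had a higher r with Malat1 than Neat1 had.

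Background for these differences came from the edgeR quasi-likelihood test across all genes, in which 0 of 11574 genes (0%) passed an adjusted p of 0.05 (Benjamini-Hochberg) and 318 (2.75%) had an unadjusted p under 0.05. limma-voom also called 0 genes (0%) and DESeq2 called 198 of 12133 genes (1.63%). The groups did not overlap for 9.62% of all genes tested, with the cKO above for 4.99% and below for 4.62%. Neither member was among those. Of the 106 genes that averaged 1000 CPM or more, Malat1 had the largest log2 difference in either direction by edgeR, and the median size was 0.087. Its coefficient of variation (CV, the SD as a share of the mean) over the cKO libraries, 41.5%, was likewise the largest of the 106 (median 8.30%). Over the controls it was 13.9%, which 49 of the 106 genes reached or passed, counting Malat1. The cKO 3 library was the highest of the 6 for 20.8% of these genes. Among 3671 genes with a mean of 5 to 20 CPM, the range of Neat1, 2141 had a log2 difference at least as large in size as that of Neat1. Since the members were chosen with this contrast known, nothing is read from these positions.

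**Figure D2:**
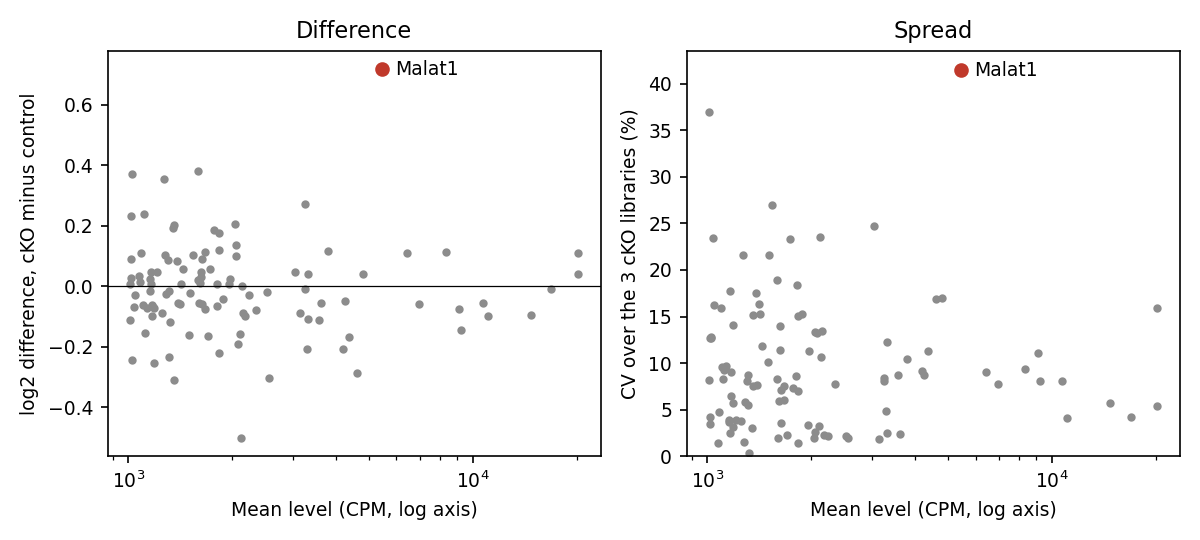
The 106 genes that averaged 1000 CPM or more, by mean level on a log axis, with the log2 difference of cKO minus control from edgeR (left) and the CV over the 3 cKO libraries in percent (right). Each point is a gene. Malat1, in red, lies at 0.72 and 41.5%, where the median gene had a difference of 0.087 in size and a CV of 8.30%.

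The deposited TPM values, which are scaled for transcript length, put Malat1 much higher than its count spread over the full-length RNA would. TPM of Malat1 was 10927, 8713 and 17657 in cKO 1, 2 and 3 and 6548, 9452 and 7776 in control 1, 2 and 3. The ratio of count to TPM follows the mean length of the models that took the reads. It was turned into bases with genes that have a single annotated transcript, of which 83.7 to 85.9% per library came out within 1% of their annotated length. The implied mean length of Malat1 was 847, 877 and 875 bases in the cKO and 827, 854 and 850 bases in the control, 11.8 to 12.6% of the 6983 bases of Malat1-201. Malat1 was the lowest of the 106 most abundant genes in this share of its longest model, where the median was 98.3% and the next lowest was Rarres2, the chemerin gene, at 29.8%. The implied length did not separate the genotypes, at 866 ± 16.5 bases in the cKO and 844 ± 14.8 bases in the control (SD, n = 3 each). An exact permutation test, two-sided, gave p = 0.3, with 0.1 as the smallest p possible for 3 against 3.

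If the reads had been split between Malat1-201 and a single short model, the full-length model would hold 2.698 to 6.03% of Malat1 TPM over the 6 libraries and the 3 choices of short model. In estimated counts its share would be 32.2 to 67.2%. With all counts placed on Malat1-201, TPM would be 949, 781 and 1599 in cKO 1, 2 and 3 and 549, 822 and 686 in control 1, 2 and 3. The deposited values were 11.0 to 11.9 times higher than these. The order of the libraries by TPM was the same on both scales, and cKO 3 stayed the highest. The models that took the reads in the authors' run are not listed in the files.

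The implied length of Neat1 differed several-fold between libraries, while that of Malat1 did not. It was 20885, 20859 and 5371 bases in cKO 1, 2 and 3 and 3365, 20862 and 20925 bases in control 1, 2 and 3. In 4 libraries the value was thus within 1% of the 20771 bases of Neat1-201, so nearly all of the estimated Neat1 reads had been given to the long isoform, the one that builds paraspeckles. In cKO 3 and control 1, 1 library of each genotype, shorter models had taken part. With Neat1-202 as the only short model, Neat1-201 would hold 13.3% of Neat1 TPM and 53.5% of its estimated counts in cKO 3, and 2.03% and 13.4% in control 1. With Neat1-204, the shortest model, those shares of counts would be 93.3% and 87.5%. The implied length averaged 15705 ± 8950 bases in the cKO and 15051 ± 10120 bases in the control (SD, n = 3 each), with p = 0.9 by the same exact test. The control 3 value rests on 2.02 estimated counts.

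**Figure D3:**
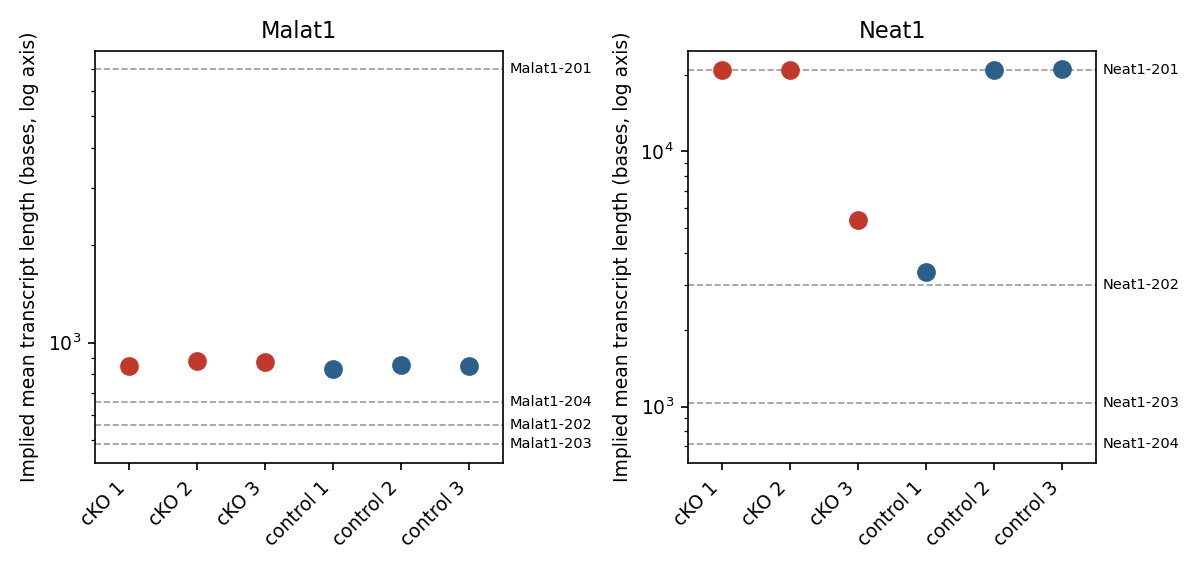
Implied mean transcript length of Malat1 (left) and Neat1 (right) in each library, in bases on a log axis. Points are libraries (red cKO, blue control), and dashed lines are the lengths of the GENCODE M21 models. All 6 Malat1 values lie between 827 and 877 bases, near the short models, and 4 Neat1 values lie at the long model, with cKO 3 at 5371 and control 1 at 3365 bases.

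In deposited TPM, Neat1 stood at 0.0648, 0.231 and 3.53 in cKO 1, 2 and 3 and at 6.18, 0.812 and 0.00724 in control 1, 2 and 3. The spread between its highest and lowest library was 853-fold in TPM and 148-fold in CPM. Compared per length, Malat1 exceeded Neat1 in every library. The ratio of their TPM with all counts on the full-length models was 14571, 3360 and 1821 in cKO 1, 2 and 3 and 587, 1009 and 93977 in control 1, 2 and 3.

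A gene model inside Malat1 took a nearly constant share of reads. Gm37376 spans chr19:5801941-5802393 on the plus strand, opposite to Malat1, as an unspliced model of 453 bases in the GENCODE class of models that await experimental evidence. All of its 423 words of 31 bases occur in Malat1-201 on the opposite strand. Its estimated count was 12690, 8812 and 22648 in cKO 1, 2 and 3 and 8106, 9999 and 10063 in control 1, 2 and 3. That was 15.5 ± 0.91% of the Malat1 count (SD, n = 6), with a range of 14.3 to 16.7%. By CPM the libraries had the same order for both genes (Spearman rho of 1 over 6 libraries). Strand use in the library and the counting is not recorded in the sources used here, and reads of Gm37376 and of Malat1 cannot be told apart in this stretch. Summed over both, the level was 7859 ± 3334 CPM (cKO) and 4762 ± 668 CPM (control) (SD, n = 3 each), a ratio of 1.65 against 1.64 for Malat1 alone. No other gene with a count in these libraries shared 50% or more of its words with Malat1-201 or Neat1-201.

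**Figure D4:**
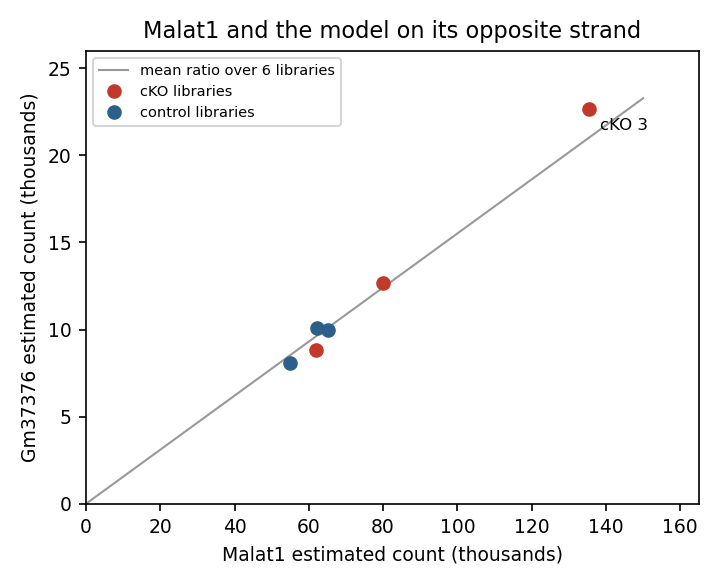
Estimated count of Gm37376 against that of Malat1, both divided by 1000, on linear axes from 0. Points are libraries (red cKO, blue control), and the line is the mean ratio of 15.5%. All 6 libraries lie close to the line, with cKO 3 at its upper end.

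Other nuclear-retained RNAs were given by a list of 22, of which 15 passed the filter on low counts. By edgeR, 5 of the 15 were higher and 10 lower in the cKO and 0 passed the adjusted threshold (0% of all genes), with a median log2 difference of -0.43 against 0.0044 for all 11574 genes. The list median changed sign without control 1 (0.34). Most members were at a few CPM, where single libraries set the mean. Kcnq1ot1, an imprinted RNA that silences its neighbours, stood at 34.9, 27.7 and 55.5 CPM in cKO 1, 2 and 3 and at 26.3, 25.6 and 26.9 CPM in the controls. All 3 cKO libraries lay above the controls, with cKO 3 the highest. Mir99ahg, a host gene of microRNAs, stood at 79.9, 25.8 and 52.0 CPM (cKO) and 7.28, 15.98 and 4.60 CPM (control) (log2 difference 2.50 ± 0.76, edgeR adjusted p = 0.99999, DESeq2 adjusted p = 0.0329). Its groups did not overlap, a state that holds with the cKO above for 4.99% of all genes tested.

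Sox2ot, which overlaps the stem cell factor gene Sox2, stood at 32.2, 55.04 and 62.7 CPM (cKO) and at 64.6, 66.3 and 20.7 CPM (control), so the groups overlapped. Pantr1 stood at 10.4 ± 3.20 and 22.1 ± 8.71 CPM (SD, n = 3 each). Airn, the antisense RNA of the imprinted Igf2r locus, was at 0 counts in all 3 cKO libraries and at 3.37, 9.12 and 1.41 CPM in the controls (DESeq2 adjusted p = 0.0250, edgeR adjusted p = 0.99999). Chosen after their values were seen, Meg3 and Xist were highest in cKO 3, as was Malat1. Meg3, an imprinted RNA, stood at 5.29, 9.74 and 21.1 CPM (cKO) and 0.331, 1.39 and 0.0639 CPM (control) (DESeq2 adjusted p = 0.0469, edgeR adjusted p = 0.99999). Xist, which coats the inactive X chromosome, had an estimated 204 counts in cKO 3 and at most 18.6 in any other library, and it did not pass the filter. Tsix, its antisense RNA, was lowest in cKO 3, at 25.2 estimated counts against 82 to 258 in the others. Reads may have been shared between these overlapping genes, so the order of libraries for Xist may depend on that division, which was not tested.

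**Figure D5:**
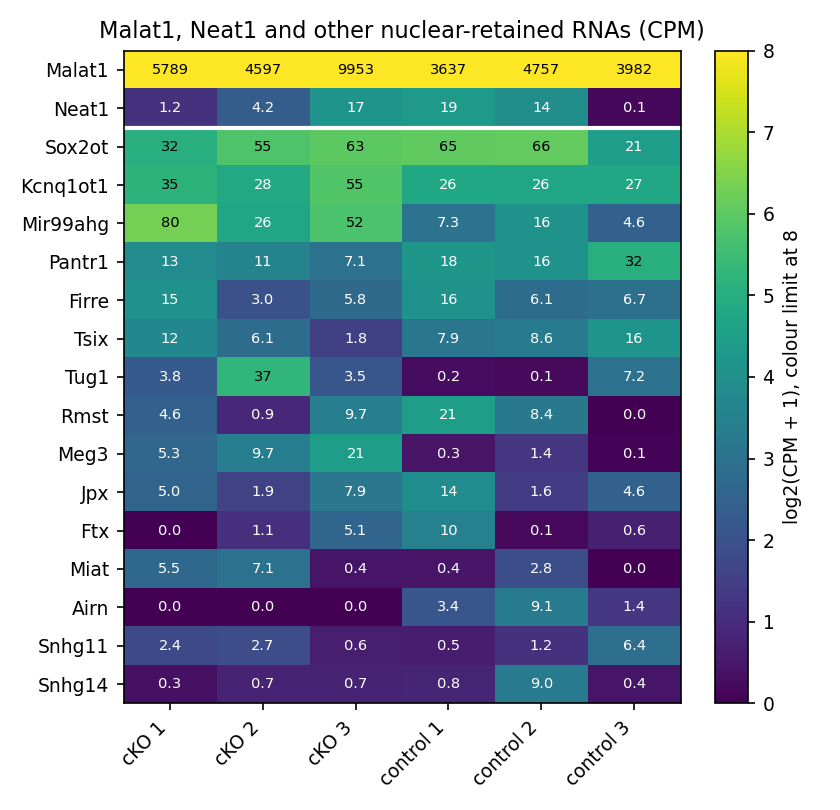
Level of Malat1, Neat1 and the 15 tested nuclear-retained RNAs in each library, printed in CPM and coloured by log2(CPM + 1) with the colour limit at 8. Columns are libraries and rows below the white line are ordered by mean level. Malat1 runs from 3637 to 9953 CPM, while Neat1 and the other RNAs stay under 80 CPM with no order of libraries common to the rows.

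The cKO 3 library was picked out here as the one with the most Malat1. Only the list of nuclear-retained RNAs stands for nuclear RNAs, since the paraspeckle and speckle lists hold protein-coding genes. In each list, the genes with their highest value in cKO 3 were counted. Among all 11574 genes tested that was 16.2%. Of the 15 nuclear-retained RNAs it was 2, Kcnq1ot1 and Meg3 (13.3%), and of the 27 tested paraspeckle protein genes it was 2, Sfpq and Cpsf7 (7.41%). Of the 34 nuclear speckle protein genes it was 12 (35.3%), among them the splicing factor genes Srsf2, Srsf3, Srsf5 and Srsf6, the splicing kinase gene Clk1 and the speckle scaffold gene Srrm2. The median log2 difference of cKO 3 from the mean of the other 5 libraries was 0.57 for the speckle list, 0.50 for the nuclear-retained RNAs and -0.50 for the paraspeckle list, against 0.16 for all genes, 1.15 for Malat1 and 2.32 for Neat1. The Neat1 value is taken from a mean of log2 levels, which control 3, at 0.128 CPM, pulls down. By CPM, cKO 3 held 2.15 times the mean of the other 5 libraries for Neat1 and 2.19 times for Malat1. These shares and medians carry no test.

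Paraspeckle protein genes, whose products assemble on Neat1, were split about evenly in direction between the genotypes. Of 29 listed, 27 were tested, with 13 higher and 14 lower in the cKO, 0 called by edgeR, and a median log2 difference of -0.076, which was 0.0068 with limma-voom. Hnrnpk, whose product favours the long Neat1 isoform, stood at 1099 ± 80.9 CPM (cKO) and 900.1 ± 516 CPM (control). Its level was 359 CPM in control 1 and 1169 CPM in cKO 3, the libraries with a short implied Neat1 length, which were the lowest and the second highest of the 6. Nono, a core paraspeckle protein gene, stood at 161 ± 83.8 and 173 ± 65.8 CPM, and Ewsr1 at 248 ± 53.1 and 232 ± 145 CPM. Matr3, a nuclear matrix protein gene, stood at 155 ± 29.4 and 111 ± 17.9 CPM. Rbm7, a gene of the nuclear exosome targeting complex, stood at 138 ± 36.2 and 220 ± 46.4 CPM (SD, n = 3 each, log2 difference -0.67 ± 0.27, edgeR adjusted p = 0.99999).

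Of the 34 nuclear speckle protein genes, all of which were tested, 19 had a higher and 15 a lower cKO mean, with 0 called by edgeR and a median log2 difference of 0.13 that was -0.0062 without cKO 3. Srsf5, a splicing factor gene, stood at 254, 181 and 421 CPM in cKO 1, 2 and 3 and at 154, 148 and 241 CPM in control 1, 2 and 3. Its groups overlapped and cKO 3 was the highest, as for Malat1. Srsf10 stood at 279 ± 19.2 CPM (cKO) and 362 ± 37.4 CPM (control), Srsf7 at 277 ± 21.1 and 342 ± 86.2 CPM, and Bclaf1 at 212 ± 33.6 and 224 ± 50.2 CPM. Rbm25, which encodes a regulator of splice site choice, stood at 96.1 ± 30.1 and 38.0 ± 27.0 CPM (log2 difference 1.34 ± 0.57, edgeR adjusted p = 0.99999).

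Genes that process or bind the members' RNA included subunits of RNase P, the tRNA end enzymes and the m6A writers and readers. Of 18 listed, 15 were tested, with 12 higher and 3 lower in the cKO, 0 called by edgeR and a median log2 difference of 0.29. Among all 11574 genes tested, 5823 were higher and 5751 lower, with a median of 0.0044. The direction of the list as a whole was not tested. Rpp14, an RNase P subunit gene, stood at 88.3, 70.3 and 101 CPM (cKO) and 27.2, 11.0 and 32.9 CPM (control). Its groups did not overlap, as for 4.99% of all genes tested with the cKO above (log2 difference 1.87 ± 0.50, edgeR adjusted p = 0.99999, DESeq2 adjusted p = 0.0262). Rpp38 and Rpp30, further RNase P subunit genes, stood at 56.2 ± 23.9 against 33.2 ± 8.55 CPM and at 94.9 ± 37.3 against 116 ± 33.8 CPM. Pop5 stood at 68.4 ± 42.5 against 63.2 ± 20.6 CPM. Hnrnpc, an m6A-sensitive RNA-binding protein gene, stood at 348 ± 87.7 against 297 ± 11.0 CPM, and Trnt1, which adds CCA to tRNA ends and to the tRNA-like RNA of Malat1, at 86.1 ± 8.88 against 90.8 ± 43.1 CPM.

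Neighbouring genes on chromosome 19 stayed far below Malat1. Of 16 listed, 12 were tested, with 4 higher and 8 lower in the cKO and 0 called by edgeR. Dpf2 stood at 68.2 ± 16.1 CPM (cKO) and 98.7 ± 60.8 CPM (control), Sssca1 at 67.6 ± 18.7 and 81.2 ± 11.2 CPM and Fam89b at 35.1 ± 18.3 and 36.1 ± 23.8 CPM. Rela, which encodes an NF-kB subunit, stood at 8.10 ± 2.91 and 37.7 ± 20.8 CPM (log2 difference -2.22 ± 0.82, edgeR adjusted p = 0.99999, DESeq2 adjusted p = 0.0356). Tigd3 stood at 13.2 ± 12.5 and 0.823 ± 0.570 CPM. Frmd8os, which starts beside the Neat1 start on the opposite strand, stood at 7.47, 2.23 and 6.69 CPM in cKO 1, 2 and 3 and at 4.43, 1.02 and 0 CPM in control 1, 2 and 3. It was lowest in control 3, as was Neat1, but highest in cKO 1, where Neat1 was second lowest. Frmd8os overlaps Frmd8 on the opposite strand, and Frmd8 had 548 estimated counts in control 3. Reads may have been shared between them, so the order of libraries for Frmd8os may depend on that division, which was not tested.

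Stress and immediate early genes, which cell dissociation can induce, were given beside the members. Of 15 listed, 12 were tested, with 7 higher and 5 lower in the cKO and 0 called by edgeR. Hsp90aa1, a chaperone gene, stood at 3560 ± 289 CPM (cKO) and 2950 ± 341 CPM (control), Dusp1 at 422 ± 54.1 and 494 ± 265 CPM and Dnajb1 at 176 ± 3.58 and 151 ± 50.7 CPM. Jund, an AP-1 subunit gene, stood at 322 ± 32.9 and 729 ± 62.8 CPM, with all 3 cKO libraries below the controls (edgeR adjusted p = 0.779, DESeq2 adjusted p = 4.35e-13, and edgeR adjusted p = 0.0466 over genes that averaged 50 CPM or more). All 3 cKO libraries lay below the controls for 4.62% of all genes tested.

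Genes with the pattern most like each member were ranked by the Pearson r of log2 CPM over the 6 libraries, over genes that averaged 50 CPM or more, without the genes that have only a model number. For Malat1, 15 of 3479 genes reached an r of 0.9. Among the highest were Pepd (r = 0.98), a prolidase gene, Golga5 (0.96), a golgin gene, Mea1 (0.96), Actr10 (0.95), a dynactin subunit gene, Wapl (0.94), a cohesin release factor gene, Slc38a2 (0.94), an amino acid transporter gene, and Ube2e1 (0.93). Pepd stood at 75.4, 66.0 and 116 CPM in cKO 1, 2 and 3 and at 61.9 to 68.5 CPM in the controls, so its pattern too was set by cKO 3. The lowest were Alyref (-0.98), an mRNA export adaptor gene, Smad2 (-0.98), Trip6 (-0.97) and Ddx3x (-0.97), an RNA helicase gene, each with its lowest level in cKO 3.

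For Neat1 the highest were Lyrm4 (0.996), Sox2ot (0.98), Ocln (0.98), the occludin gene, Lgals3 (0.98), the galectin-3 gene, Cdk17 (0.97), Higd1a (0.97), Fnta (0.97) and Tmem246 (0.97). The lowest were Epb41l4a (-0.97), Cfap45 (-0.96), a cilia gene, Ppp2ca (-0.95) and Clic4 (-0.95). Sox2ot was the only RNA of the nuclear-retained list with the mean of 50 CPM that this ranking required, so no other could appear. It stood at 64.6, 66.3 and 62.7 CPM in control 1, control 2 and cKO 3, the libraries with the most Neat1, and at 20.7 CPM in control 3. The 6 points share their libraries and scaling, and the r values are a description.

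The libraries were checked by their labels and markers. Totals ran from 13401499 to 15689579 estimated counts, and genes with at least 1 count from 12428 to 14496. Ccn1 (listed as Cyr61) had 238 to 524 counts in the cKO and 1665 to 2224 in the control, so every library went with its label. Ependymal markers summed to 38356 to 40971 CPM with all 16 tested. Most of this sum came from Nnat (15031 to 18422 CPM) and Clu (7877 to 9846 CPM), while Foxj1 stood at 7.61 to 41.0 CPM. Of the markers of other cells, those of endothelium were at 0 in every library for 6 of 9 genes (Cldn5, Pecam1, Kdr, Cdh5, Ly6c1 and Esam), those of mural cells and fibroblasts for 4 of 9 (Vtn, Kcnj8, Dcn and Lum) and those of neurons for 3 of 10 (Rbfox3, Slc17a7 and Drd2). Each of these lists also had a member that was present in all 6 libraries. Itm2a of the endothelial list stood at 44.0 to 116 CPM, Acta2 of the mural list at 283 to 568 CPM and Ppp1r1b of the neuron list at 288 to 547 CPM. The sample descriptions name cytoplasmic RNA while the molecule field names total RNA, and Malat1 took 0.354 to 0.984% of all counts.

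In cKO 3, the library with the most Malat1, the 10 oligodendrocyte markers summed to 515 CPM (231 to 1014 in the others), the 8 choroid plexus markers to 316 CPM (522 to 813), the 11 microglia markers to 186 CPM (185 to 211) and the 10 neuron markers, Meg3 included, to 473 CPM (288 to 558). The endothelial sum was the highest of the 6 in cKO 3, at 116 CPM against 50.4 to 99.3 CPM, and came from Itm2a there. Transit-amplifying cell and neuroblast markers (9 genes) summed to 38.6 to 48.0 CPM over the cKO libraries and 58.0 to 90.9 CPM over the controls, without overlap (exact two-sided permutation p = 0.1, the smallest possible). Among single genes, 9.62% of all tested did not overlap either. The sum of the 18 processing and binding genes also did not overlap, at 1045 to 1128 CPM (cKO) and 786 to 995 CPM (control), with the same exact p. The total of cKO 3, 13760227 counts, its 13816 detected genes and its mitochondrial share of 7.49% lay within the range of the other libraries. Astrocyte and neural stem cell markers (10 genes) reached 5991 CPM there and 4935 to 7057 CPM in the others. The part of these marker levels in the Malat1 level was not tested. In bulk samples, more cells with a high level and more RNA per cell cannot be told apart.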

How the data were processed

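CASAVA 1.8, cutadapt 1.11 and kallisto 0.42.5 (a pseudoaligner, which shares reads among transcript models) are named in the submitters' processing notes. The sources used here do not give the genome build, the annotation, strand use or how transcripts became genes. Per the file headers, the deposited tables hold an estimated count and a TPM value for each of 47643 genes. The estimated counts were deposited without normalization and were rounded here, which left 19684 genes with a count and 11574 after filterByExpr. TMM scaling was followed by the robust quasi-likelihood test of edgeR 4.0.16 in R 4.3.3, with a genotype term alone and p-values adjusted by Benjamini-Hochberg over all genes at 0.05. DESeq2 1.42.0, limma 3.58.1, other filters and scalings, a replicate block and fits leaving out 1 library at a time were the alternatives. Counts per full-length model are an alternative chosen after seeing the data. The fit and the length estimate were tested on simulated data.

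Implied length is the ratio of estimated count to TPM, put on a scale of bases by a line through protein-coding genes with 1 transcript in GENCODE M21, at least 100 counts and at least 1000 bases. Single values were compared by an exact permutation test over 20 assignments. Transcript sequences and coordinates are from GENCODE M21 on GRCm38, and 99.1% of gene identifiers matched without version. Libraries held 13401499 to 15689579 counts. Precision rests on 3 libraries per group, and for Neat1 on 2.02 to 286 counts per library. The members and lists were chosen with earlier results of these data known. From each list, the rule named the 4 most abundant members and up to 2 with the smallest p, and for likeness the 8 highest and 4 lowest genes. Of the genes this rule named, 2 are not reported here.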

Additional observations from a re-analysis of the deposited data

How the results depend on the processing

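Malat1 was higher in the cKO in all 18 alternatives, with a log2 difference of 0.60 to 0.72 over 12 settings and 0.33 (without cKO 3) to 0.93 (without cKO 2) with 1 library left out. Neat1 was lower in 15 of 17 alternatives and changed sign with limma-voom (0.41). It ran from -2.05 (without cKO 3) to 0.027 (without control 1) with 1 library left out, and it had no value at a mean of at least 50 CPM, a level it does not reach. The difference in implied Neat1 length (cKO minus control) was 654 bases, and from -5189 (without control 1) to 5821 bases (without cKO 3) with 1 library left out. The count of called genes was 0 in every fit without 1 library and 2 of 3466 at a mean of at least 50 CPM (1 of them listed, Jund). With DESeq2 it was 198 of 12133 genes (1.63%), of which 6 were listed (Airn, Jund, Meg3, Mir99ahg, Rela and Rpp14). The cause was not tested. The replicate number as a block called 0 genes and gave 0.65 for Malat1, -1.08 for Neat1 and 654 bases for implied length. Same-numbered libraries correlated at 0.0080, 0.031 and 0.015 in their deviations from the group means, so the numbers were not taken to pair samples, although each library correlated best with its own number.

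Of 618 further values for 37 named genes and list medians, 44 changed sign. Fam89b did so with limma-voom (0.26), on log2(TPM + 1) (0.19) and log2(TPM + 0.1) (0.21) and with the block (0.19), Sox2ot likewise (0.14, 0.26, 0.27 and 0.082), Trnt1 likewise (0.026, 0.10, 0.11 and 0.053) and the paraspeckle median likewise (0.0068, 0.0078, 0.0011 and 0.00074). With the block Pop5 gave -0.0015 and the nuclear-retained median 0.082, and at a mean of at least 50 CPM the stress list gave -0.0012. Leaving out 1 library gave -0.25 to 0.055 for Bclaf1, -0.86 to 0.076 for Dpf2, -0.47 to 0.31 for Dusp1, -0.34 to 0.41 for Ewsr1, -0.56 to 0.35 for Fam89b, -0.086 to 0.74 for Hnrnpk, -0.45 to 0.26 for Nono, -0.53 to 0.38 for Pop5, -0.51 to 0.0016 for Rpp30, -0.39 to 0.23 for Sox2ot, -0.41 to 0.25 for Trnt1, and list medians of -0.51 to 0.34 (nuclear-retained RNAs), -0.10 to 0.076 (paraspeckle) and -0.0062 to 0.33 (speckle).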
